A study of Mus musculus with 6 samples.

Results

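The genes described here encode the proteins of the cytosolic ribosome of the mouse. They are the rows whose symbol starts with Rpl, Rplp or Rps followed by a digit, together with Rpsa. Ribosomal S6 kinases, the binding protein gene Rps19bp1, symbols containing -ps and symbols ending in l or l1 were left out. The rule found 78 of the 23337 genes in the count table. By symbol, 43 encode proteins of the large (60S) subunit, 32 of the small (40S) subunit and 3 the stalk of the large subunit (Rplp0, Rplp1 and Rplp2).

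The study sequenced polyadenylated RNA of mouse leukemia cells that the labels call primary and neonatal, and the series title places them among MLL-rearranged leukemias. All 6 libraries share that leukemia label. 3 libraries (ccl5 replicates 1 to 3) were treated with ccl5, a chemokine that draws leukocytes, and 3 (control replicates 1 to 3) were kept under control conditions. By the labels, ccl5 replicate 1 was a tertiary transplant, while ccl5 replicates 2 and 3 were primary ones, as was control replicate 3. The titles also set them apart, as neo30ccl5 for ccl5 replicate 1 and neo10ccl5 for ccl5 replicates 2 and 3, without saying what these names mean. No transplant is named for control replicates 1 and 2. Strain, age, dose and duration of treatment are not given in the sources used here, nor whether each library stands for an animal or culture of its own. The p-values then measure only the spread between these libraries, which holds their differences in transplant and in Y-linked reads (below) and may in part be technical.

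Ribosomal proteins assemble with ribosomal RNA in the nucleolus into the subunits that decode messenger RNA (40S) and join amino acids (60S). Their messages are short and abundant, and most begin with a 5′ terminal oligopyrimidine (TOP) tract, a run of C and T residues through which mTOR and the protein LARP1 control their translation. MYC is known to raise the transcription of ribosomal protein genes, and growing leukemia cells are known for a high demand for ribosomes. Inherited loss of 1 copy of several of these genes causes Diamond-Blackfan anaemia, a failure of red cell production.

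The start sites are shown first, because the TOP tract is a feature that these genes share and that the rule did not use. RefSeq start-site windows (GRCm38.p6, the assembly that mm10 names, 250 bases before to 50 after the start) were found for 56 of the 78 genes. An unbroken run of at least 8 C or T residues that begins within 25 bases of the annotated start was present in 32 of these 56 (57.1%), against 18.9% of 8669 other tested genes. The stretches below run from 60 bases before the annotated start to 25 bases after it, 5′ to 3′, with the longest such run in capitals. They were chosen after their values were seen. The first 4 have among the longest runs, Rps6 and Rplp2 are described further on, and Rplp0 has no run of 8 near its annotated start. In its stretch TATAAA lies downstream of that start. The annotated start of Rps4x lies 1020 bases from the start of its row in the counts. Whether annotated starts are those used in these cells was not tested, so genes without a run may still have a TOP tract.
Rpl7a (chr2:26910747-26910831, plus strand): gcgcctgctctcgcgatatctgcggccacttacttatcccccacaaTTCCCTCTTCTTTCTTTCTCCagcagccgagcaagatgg
Rpl27a (chr7:109519135-109519219, plus strand): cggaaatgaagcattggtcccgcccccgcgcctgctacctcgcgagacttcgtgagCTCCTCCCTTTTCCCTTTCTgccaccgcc
Rpl35 (chr2:39005107-39005191, minus strand): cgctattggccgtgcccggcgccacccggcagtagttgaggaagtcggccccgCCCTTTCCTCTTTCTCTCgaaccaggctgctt
Rpl15 (chr14:18270962-18271046, minus strand): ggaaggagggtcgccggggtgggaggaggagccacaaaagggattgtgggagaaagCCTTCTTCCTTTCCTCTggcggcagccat
Rps6 (chr4:86857343-86857427, minus strand): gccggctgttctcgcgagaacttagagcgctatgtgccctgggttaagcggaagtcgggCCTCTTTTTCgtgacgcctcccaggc
Rplp2 (chr7:141447591-141447675, plus strand): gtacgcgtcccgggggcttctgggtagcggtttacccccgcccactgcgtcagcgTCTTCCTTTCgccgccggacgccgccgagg
Rplp0 (chr5:115559407-115559491, plus strand): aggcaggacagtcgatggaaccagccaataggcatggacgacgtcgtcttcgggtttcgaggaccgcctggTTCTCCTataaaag

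The runs of Rpl7a, Rpl27a, Rpl35, Rpl15, Rps6 and Rplp2 cross the annotated start, and that of Rplp0 lies downstream of it. A run near the annotated start did not go with a larger median difference between the treatments. The median log2 fold change, ccl5 over control, was -0.49 in 31 tested genes with a run of 8 and -0.50 in 24 without one. This split rests on the annotated starts, and the genes with a run include Rpl34 and Rps27, whose counts are not reliable (below). It therefore cannot show whether a TOP tract goes with the difference. Rpl7a, with the longest run, showed -0.24 (SE 0.18), and Rpl35 showed -0.52 (SE 0.20). Other exact matches were counted on both strands of the whole window. CCGGAAG, the core bound by GABP and other ETS factors, was in 23 of the 56 windows (41.1%) and in 19% of the windows of other tested genes. AAGATGG, the core of YY1 sites, was in 8 (14.3%) and 7.4%. The MYC E-box CACGTG was in 5 (8.9%) and 10.4%, the TATA box TATAAA in 5 (8.9%) and 6.9%, and the GC box GGGCGG in 33 (58.9%) and 65.2%. Matches of different motifs may overlap, and a match says only that the letters are in the window.

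Some properties of the libraries bear on every value. Gene counts summed to between 13421100 and 18445095 per library. Ptprc, which encodes the pan-leukocyte marker CD45, had 8553 to 11997 counts in each library, and the haemoglobin genes Hba-a1 and Hbb-b1 had 0 in all. Ccl5 replicates 1 and 3 resembled each other, as did control replicates 1 and 2, and ccl5 replicate 2 and control replicate 3. Y-linked genes had 0 counts in ccl5 replicates 1 and 3 and 5103 to 7777 in the others. Ferritin light and heavy chain genes (Ftl1 and Fth1) took 10.5% and 11.3% of all counts in ccl5 replicates 1 and 3 and 1.02% to 2.70% in the other libraries. The share of a library left for all other genes therefore differed, and TMM scaling, which levels such shifts in composition, gave factors of 0.846 and 0.819 to these libraries and 1.02 to 1.19 to the others. Levels and fold changes below are on the TMM scale.

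Ribosomal protein messages made up a smaller part of the RNA in each treated library than in any control. Their summed share of counts was 5.60% in ccl5 replicate 1, 10.1% in replicate 2 and 6.01% in replicate 3. The controls, in the same order, gave 11.3%, 11.2% and 10.9%. The means were 7.24% ± 2.49 and 11.1% ± 0.217 (SD, n = 3 each), a difference of -3.89 percentage points. With ccl5 replicates 1 and 3 left out, the libraries without Y-linked reads, 1 ccl5 library remained and the difference was -1.03 points. The exact Clopper-Pearson 95% intervals, which cover counting error only, were narrow, from 10.08% to 10.11% for ccl5 replicate 2 and from 10.86% to 10.89% for control replicate 3. The groups did not overlap, but ccl5 replicate 2 lay close to control replicate 3 and far from the other ccl5 libraries. Leaving out mitochondrially encoded genes and the 50 most abundant other genes, the ferritin genes included, moved the shares to 7.70%, 11.3% and 8.37% with ccl5 and 13.7%, 13.6% and 12.2% in controls. The 60S and stalk genes gave 3.28%, 5.79% and 3.52% against 6.57%, 6.51% and 6.22%. The 40S genes gave 2.32%, 4.31% and 2.49% against 4.70%, 4.71% and 4.65%, so both subunits had the same layout.

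**Figure D1:**
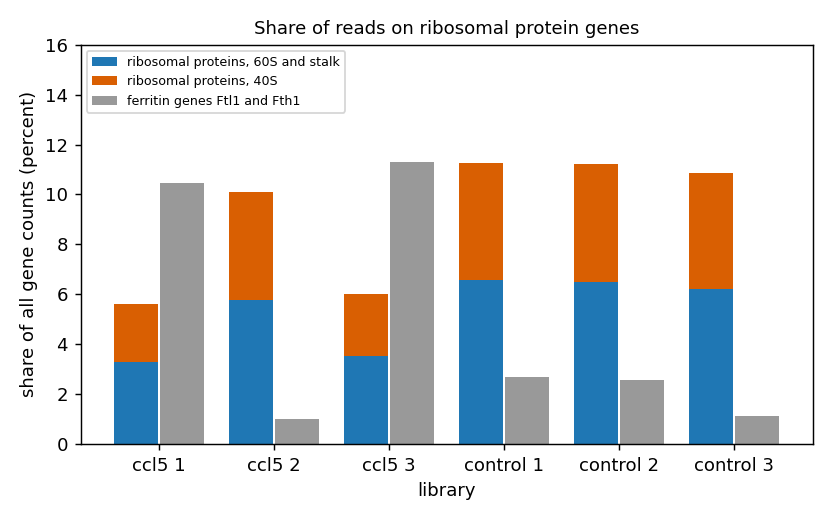
Share of all gene counts (percent, y axis) on ribosomal protein genes, stacked by subunit, and on the ferritin genes Ftl1 and Fth1 in each of the 6 libraries (x axis). Ccl5 replicates 1 and 3 show the lowest ribosomal protein shares (5.60% and 6.01%) and the highest ferritin shares (10.5% and 11.3%).

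Gene by gene, the comparison of ccl5 with control asks how each message differs under the treatment. The presence of Y-linked reads is not balanced between the groups. Whether transplant and leukemia of origin are balanced is not known. No transplant is named for control replicates 1 and 2, and the labels do not give the leukemia of origin per library. The part of these factors in any fold change therefore cannot be told apart from that of ccl5. No ribosomal protein gene passed the test. The adjusted p of the 75 tested genes lay between 0.365 and 0.867 in edgeR's quasi-likelihood test with Benjamini-Hochberg adjustment over all 12174 tested genes, of which 0 (0%) passed 0.05. At an unadjusted p under 0.05 there were 33 of the 75, all lower with ccl5, against 4.67% of all tested genes. Of the 75 genes 73 had a fitted log2 fold change below 0, as did 51% of all tested genes. In 68 the 3 ccl5 values all lay below the 3 control values, as in 7.49% of all tested genes, and in 1 (Rpl34) they all lay above, as in 8.27%. The median log2 fold change was -0.51, a level 0.703 times that of controls, with quartiles of -0.58 and -0.38. The median over all tested genes was -0.01. The median of the ribosomal protein genes was smaller in size among primary transplants only, at -0.23 (1 control), and among libraries with Y-linked reads only, at -0.31 (1 ccl5 library). The SE of a single gene ranged from 0.16 to 0.69 with a median of 0.21. The call depended on the libraries and on the tool. Without ccl5 replicate 2, the treated library nearest to the controls, 28 of the 75 genes passed, all lower, against 11.9% of all tested genes in that direction. Without control replicate 3 there were 0 (1.34% of all), and in DESeq2's Wald test 0 (0.666% of all). limma-voom with quality weights called 72, all lower, against 33.5% of all tested genes. In bulk RNA, fewer cells that make ribosomes and less of this RNA per cell cannot be told apart.

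**Figure D2:**
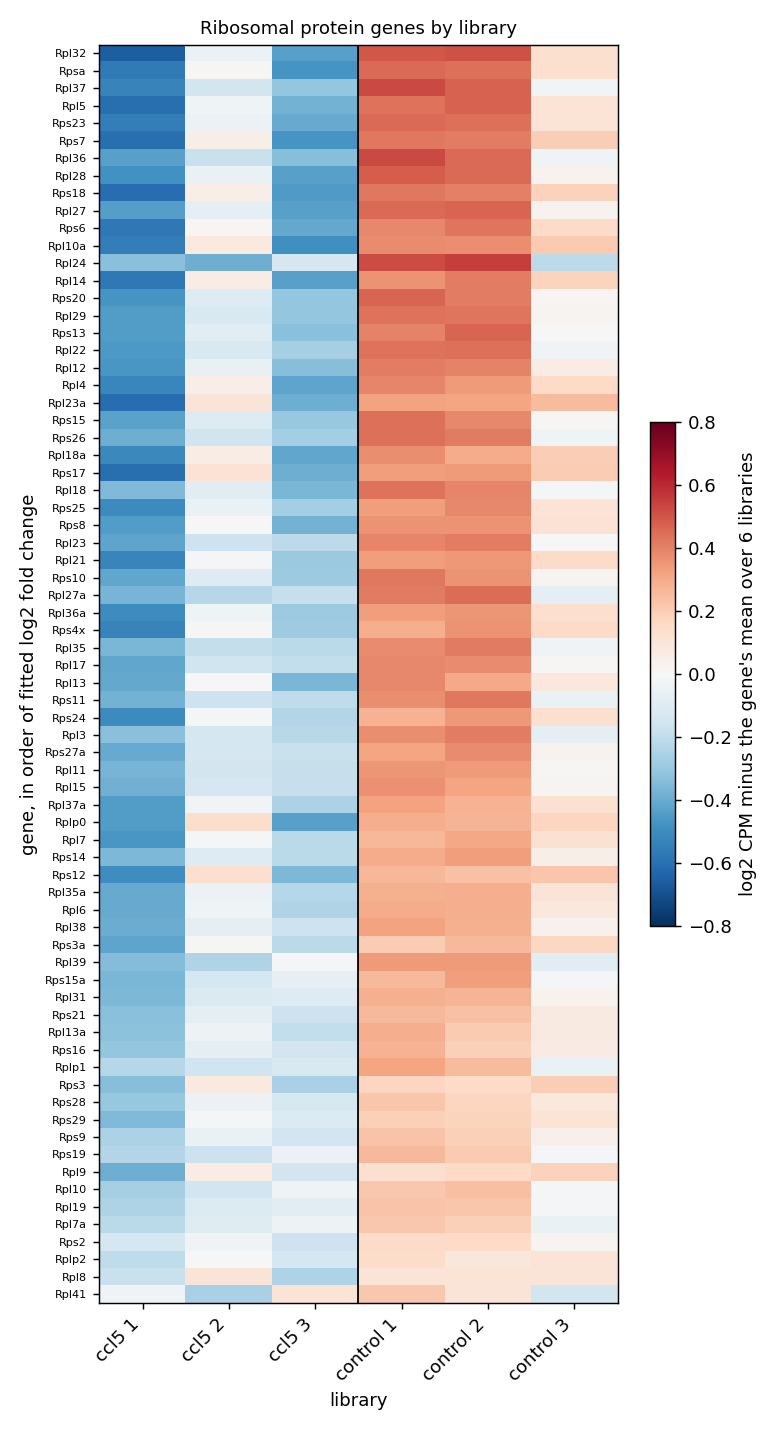
Log2 CPM of 72 of the 73 genes above 300 CPM in all libraries, minus each gene's mean over the 6 libraries (colour, blue low and red high), for each library (x axis) and gene (y axis, ordered by fitted log2 fold change). Ccl5 replicate 1 is the lowest library in most rows, control replicates 1 and 2 are the highest, and ccl5 replicate 2 and control replicate 3 lie between them.

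The libraries kept nearly the same order from gene to gene. Ccl5 replicate 1 was the lowest of all 6 libraries in 68 of 75 genes, as in 15.7% of all tested genes. Ccl5 replicate 2 was the highest ccl5 library in 62, as in 45.8% of all tested genes, and control replicate 3 the lowest control in 72, as in 46.2%. Pairs of libraries show the same layers. Ccl5 replicate 1 lay below control replicate 1 by a median log2 ratio of -0.78, and ccl5 replicate 3 by -0.60. The control libraries themselves differed, with control replicate 3 at a median of -0.26 against control replicate 1. Control replicates 1 and 2 were alike (0.01). The closest ccl5 and control libraries, ccl5 replicate 2 and control replicate 3, differed by a median of -0.13, and the first was lower in 72 of 75 genes. Over all genes above 1 CPM the median of that ratio was 0.0025. These are ratios between single libraries and carry no replicate check.

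The 6 genes with the smallest p among those lower with ccl5 were Rpl36, Rpl32, Rpl27, Rpl37, Rps23 and Rpl29, each with an adjusted p of 0.365 in edgeR's quasi-likelihood test. Rpl36 (chr17:56613395-56614246, mm10), a protein of the large subunit, measured 341, 407 and 364 CPM (counts scaled by the TMM-adjusted library total) in the treated libraries and 665, 630 and 450 CPM in the untreated ones, each in the order of replicates 1 to 3, as everywhere below. The groups did not overlap, and control replicate 3 lay nearer to the ccl5 libraries than to the other controls. Rpl32 (chr6:115805514-115808743) had the lowest fold change of all (log2 -0.75, SE 0.25), with 872, 1332 and 1017 CPM against 1938, 1959 and 1502 CPM. Its ccl5 replicate 2 lay nearer to control replicate 3 than to the other ccl5 libraries.

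Rpl27 (chr11:101442245-101445596), a Diamond-Blackfan gene, measured 395, 510 and 398 CPM under ccl5, against 734, 742 and 548 CPM without it. Rpl37 (chr15:5116613-5119140), a zinc-finger protein of the large subunit, measured 440, 576 and 514 against 919, 884 and 627 CPM. Rps23 (chr13:90923122-90924732) sits at the decoding centre, where the codon meets its tRNA. It measured 818, 1164 and 907 against 1641, 1628 and 1296 CPM (log2 fold change -0.66, SE 0.23). Rpl29 (chr9:106429539-106431567) measured 613, 765 and 672 against 1126, 1122 and 846 CPM. In these 4 genes too, ccl5 replicate 2 was the highest ccl5 library and control replicate 3 the lowest control.

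**Figure D3:**
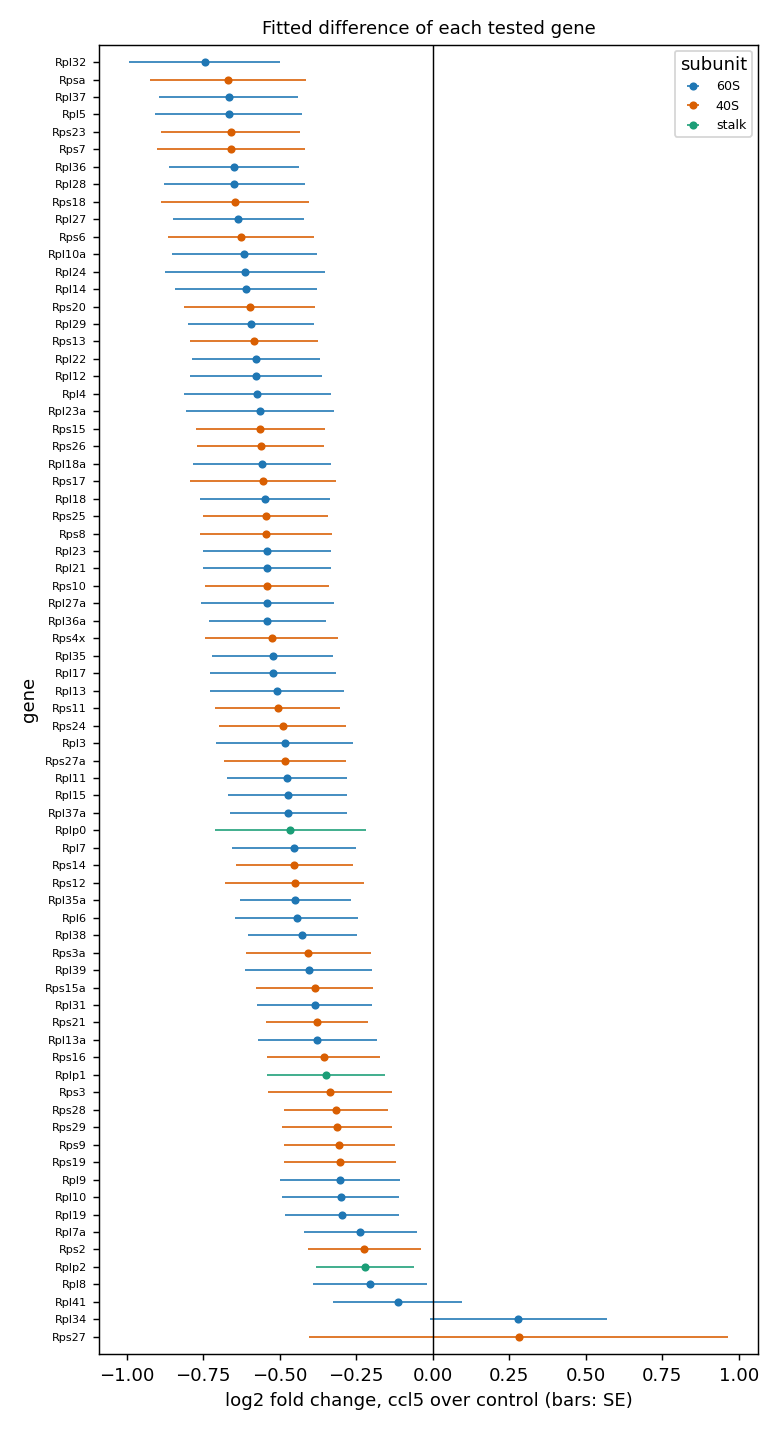
Log2 fold change, ccl5 over control (x axis, points, with bars of 1 SE), of 74 of the 75 tested genes (y axis), coloured by subunit. The points of 72 genes lie below 0, from -0.75 for Rpl32 to -0.11 for Rpl41, and Rpl34 and Rps27 lie above 0 with wide bars.

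Both subunits had similar medians. The median log2 fold change was -0.52 for the 41 tested 60S genes, of which 40 were below 0, and -0.51 for the 31 tested 40S genes, of which 30 were below 0. The stalk recruits the elongation factors to the ribosome, and its 3 genes had smaller differences (median -0.35). Rplp0 (chr5:115559467-115563729), its scaffold, measured 1926, 2905 and 1949 CPM under ccl5, against 3215, 3180 and 2965 CPM without it. Ccl5 replicate 2 thus lay at the level of control replicate 3. Rplp1 (chr9:61913283-61914510) measured 1186, 1246 and 1277 against 1728, 1654 and 1337 CPM. Rplp2 (chr7:141447650-141451342) measured 570, 659 and 597 against 726, 700 and 704 CPM (log2 fold change -0.22, SE 0.16). Rpl12, on which the stalk stands, had a log2 fold change of -0.58 (SE 0.22). Whether the stalk differs from the rest was not tested.

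Rpl5 and Rpl11 join 5S ribosomal RNA in a particle that enters the large subunit and, when unbound, holds the p53 regulator MDM2. Rpl5 (chr5:107900528-107909005) measured 1223, 1809 and 1428 CPM under ccl5, against 2505, 2567 and 2005 CPM without it. Rpl11 (chr4:136049948-136053371) measured 893, 1043 and 1015 against 1476, 1465 and 1164 CPM. Both had no overlap between groups. Of the exons of Rpl5, 47.7% of bases are shared with the row of Fam69a, and the counting command set no option to count reads on both. Along the tunnel through which new proteins leave the ribosome, 7 tested genes had a median log2 fold change of -0.52, all below 0. Rpl39 (chrX:37082520-37085184), a small protein of the tunnel wall, measured 545, 586 and 689 CPM against 876, 878 and 655 CPM. There the groups overlapped, since control replicate 3 lay below ccl5 replicate 3.

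Among the 40S genes, Rps6 (chr4:86854099-86857367) encodes the protein that S6 kinases phosphorylate downstream of mTOR. It measured 1297, 1949 and 1448 CPM under ccl5, against 2511, 2594 and 2138 CPM without it (log2 fold change -0.63, SE 0.24). Rpsa (chr9:120127766-120132369), also known as the laminin receptor, measured 2081, 3099 and 2220 against 4210, 4176 and 3380 CPM (-0.67, SE 0.25). Rps27a (chr11:29545842-29548040), which is made as a fusion with ubiquitin, measured 1018, 1222 and 1186 against 1669, 1743 and 1371 CPM. None of these overlapped between the groups. Rps14 (chr18:60774596-60778546), whose human counterpart is lost in the 5q- syndrome, measured 928, 1109 and 1025 against 1459, 1502 and 1226 CPM. Rps19 (chr7:24884714-24889802), the gene first tied to Diamond-Blackfan anaemia, had a smaller difference, with 1020, 1064 and 1159 against 1432, 1386 and 1187 CPM (-0.30, SE 0.18). Its ccl5 replicate 3 and control replicate 3 were nearly level. Of 19 Diamond-Blackfan genes 18 were tested. In 17 of these (94.4%) the fold change was below 0 and the groups did not overlap. All ccl5 values lay below all control values in 90.7% of tested ribosomal protein genes and 7.49% of all tested genes. The median of the 18, -0.48, lay near that of all ribosomal protein genes.

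Of the 4 X-linked ribosomal protein genes 3 (75%) had no overlap between the groups, Rpl39 being the exception. That layout, lower with ccl5, was seen in 90.7% of tested ribosomal protein genes and 7.49% of all tested genes. In Rpl10 and Rpl39 ccl5 replicate 3 was the highest ccl5 library. Rps4x (chrX:102184943-102188371) measured 965, 1408 and 1151 CPM under ccl5, against 1712, 1798 and 1563 CPM without it. Rpl10 (chrX:74270816-74273135), at the peptidyl transferase centre, measured 1382, 1492 and 1619 against 1925, 1959 and 1650 CPM. All 4 X-linked genes had a fold change below 0 (median log2 -0.47). Of the remaining genes fixed for description, Rpl3 (chr15:80077781-80083406), an early assembling core protein, measured 1741, 1991 and 1882 against 2842, 2919 and 2090 CPM. Rpl13a (chr7:45125563-45128745), the human counterpart of which serves in a translational repressor of inflammatory genes, measured 1493, 1822 and 1636 against 2293, 2168 and 1974 CPM. Rpl22 (chr4:152325878-152334071), lost in some T-cell leukemias, measured 370, 468 and 424 against 690, 693 and 500 CPM.

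The smallest differences among abundant members were in Rpl41, Rpl8, Rplp2, Rps2, Rpl7a and Rpl19, the 6 with a log2 fold change above -0.30. Rpl8, Rps2, Rpl7a and Rpl19 were named after their values were seen. Rpl41 (chr10:128548110-128549168), which encodes the smallest ribosomal protein, measured 1572, 1340 and 1730 CPM under ccl5, against 1858, 1723 and 1445 CPM without it. The groups overlapped, and within each group the lowest library was ccl5 replicate 2 or control replicate 3 (log2 fold change -0.11, SE 0.21). Rpl8 measured 1048, 1274 and 997 against 1276, 1280 and 1272 CPM, so ccl5 replicate 2 was level with the controls. Rps2 measured 2004, 2161 and 1969 against 2450, 2470 and 2240 CPM, without overlap.

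Members also differed in where ccl5 replicate 2 and control replicate 3 fell within their groups. Over the 73 genes above 300 CPM, the log2 level of control replicate 3 minus the mean of control replicates 1 and 2 ranged from -0.75 in Rpl24 to 0.04 in Rpl9 (median -0.25). Ccl5 replicate 2 minus the mean of ccl5 replicates 1 and 3 was lowest in Rpl41 (-0.30), with a median of 0.27. Rpl24 (chr16:55966275-55971437) measured 641, 616 and 738 CPM under ccl5, against 1162, 1189 and 699 CPM without it. Its low control replicate 3 gave it the widest spread among abundant members in the control group. Across the 73 genes these deviations had a Pearson r of 0.414 and a Spearman rho of 0.382. That is a description across genes of the same 6 libraries, and genes are not replicates. By contrast, ccl5 replicate 2 minus control replicate 3 stayed between -0.18 and 0.0027 in all 73 genes.

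**Figure D4:**
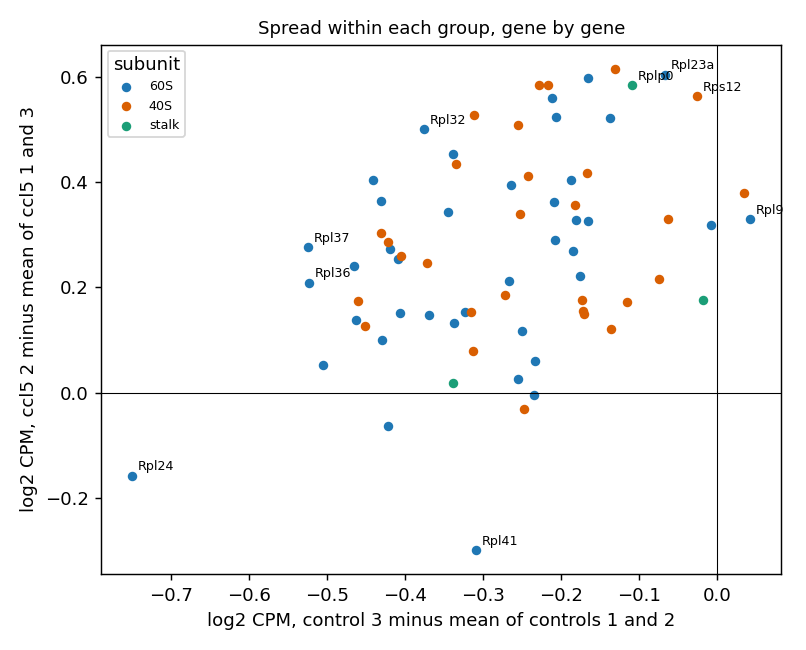
For 72 of the 73 abundant genes, the log2 level of control replicate 3 minus the mean of control replicates 1 and 2 (x axis) and of ccl5 replicate 2 minus the mean of ccl5 replicates 1 and 3 (y axis), coloured by subunit. Most points lie left of 0 and above 0, with Rpl24 at -0.75 on the x axis and Rpl41 at -0.30 on the y axis.

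Levels between genes are compared as CPM per kilobase of exon, averaged over the 6 libraries. The exon length counts all annotated exons of a gene, so rarely used exons lower the value. The median of the 73 abundant genes was 1636. The highest were Rpl41 (3588), Rplp1 (3001), Rpl32 (2851), Rps16 (2442) and Rps29 (2383). Rps16 measured 1317 ± 107 CPM under ccl5, against 1686 ± 126 CPM without it (SD, n = 3 each), and Rps29 measured 829 ± 98.3 and 1030 ± 30.8 CPM. The lowest abundant members were Rps15a (151), whose annotated exons sum to 5134 bases, Rpl22 (257) and Rpl21 (532). Rps15a measured 591, 692 and 727 against 914, 959 and 754 CPM and Rpl21 668, 958 and 784 against 1215, 1223 and 1070 CPM. These highest and lowest abundant members all had a fold change below 0, though that of Rpl41 was small (log2 -0.11, SE 0.21). Rps27 (2.05) and Rpl34 (4.37) lay lower still per length and had fold changes above 0, from counts described next.

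A few members were almost without reads, and in each case but 1 the table itself shows an overlap. Rpl26 had 0 counts in all 6 libraries, which allows up to 3 counts a library. Rpl30 had 0, 6 and 0 counts under treatment and 5, 9 and 8 without it, Rpl34 had 28 to 48 and Rps27 6 to 26. All encode core ribosomal proteins. Of their exon bases 95.8%, 76%, 67.2% and 60% are shared with a second row of the table (Gm15772, Gm12191, Rpl34-ps1 and Gm9846), and each of those rows had 0 counts. The counting command set no option to count reads that fall on more than 1 gene. Among the other 74 members 7 shared exon bases with another row, at most 47.7% (Rpl5). The values of Rpl26, Rpl30, Rpl34 and Rps27 cannot be read as levels of these messages, and the fold changes above 0 of Rpl34 (log2 0.28, SE 0.29) and Rps27 (0.28, SE 0.69) rest on such counts. Without the members that share exon bases, all 66 tested genes had a fold change below 0, with a median of -0.52.

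Rps4y2 (chr6:148354656-148355596) shares no exon bases with another row. It had 154 counts in ccl5 replicate 2, 176 in control replicate 3 and 0 in the 4 other libraries, which allows up to 3 in each. The gene lies on chromosome 6 despite its symbol, and 2 of the 4 libraries without its reads had Y-linked reads. It did not pass the filter on low counts.

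The related genes of translation are given list by list, and none passed the test (edgeR). Among the ribosomal components that the rule misses 3 were tested. In all 3 the ccl5 values lay below the control values, as in 7.49% of all tested genes. Fau, a fusion that yields the small-subunit protein S30, measured 1044, 1041 and 1114 CPM under ccl5, against 1601, 1514 and 1167 CPM without it. Gnb2l1, an older symbol of Rack1, measured 1288, 1919 and 1406 against 2089, 2092 and 2039 CPM. Of the paralogs left out by the rule, 4 were tested. Rpl22l1 measured 67.5, 99.1 and 75.8 against 116, 126 and 110 CPM, while the log2 fold change of Rpl36al was -0.39 (SE 0.17) and that of Rps27l, a p53 target, -0.09 (SE 0.14).

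Other genes listed for messages with TOP tracts, most but not all of them translation factors, were split. Of 21 tested 16 had a fold change below 0 and 5 above, with a median of -0.22. In 7 (33.3%) all ccl5 values lay below all control values and in 0 above, against 7.49% and 8.27% of all tested genes. Eef1b2, an elongation factor subunit, measured 434, 625 and 482 CPM under ccl5, against 817, 850 and 685 CPM without it, the log2 fold change of Npm1 was -0.63 (SE 0.22) and that of Eif3e -0.54 (SE 0.19). Of 26 other initiation factors 15 were below 0 (median -0.10), with Eif2b3 (-0.69, SE 0.24), Eif2s1 (-0.46, SE 0.18) and Eif1ax (-0.39, SE 0.18) at the smallest p. In 5 of the 26 (19.2%) all ccl5 values lay below all control values, and in 3 all lay above. Of 57 ribosome biogenesis genes 55 were below 0 (median -0.43) and in 8 of them (14%) all ccl5 values lay below all control values, against 7.49% of all tested genes. Brix1 measured 25.5, 31.5 and 26.6 against 39.4, 40.9 and 34.4 CPM, while Nob1 (-0.64, SE 0.24) and Heatr1 (-0.77, SE 0.30) overlapped between groups. Of 76 mitochondrial ribosomal protein genes 60 were below 0 (median -0.19), among them Mrpl13 (-0.65, SE 0.21), Mrps10 (-0.89, SE 0.31) and Mrpl23 (-0.56, SE 0.20). In 18 of the 76 (23.7%) all ccl5 values lay below all control values, and in 3 all lay above.

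Among 26 tested genes listed as regulators 9 were below 0 and 17 above (median 0.15). The list mixes genes that promote ribosomal protein synthesis, such as Myc, with genes that restrain it, and holds some with a less direct tie. Its counts and median therefore give no direction of regulation. Tsc1, which restrains mTOR, measured 82.2, 37.5 and 94.7 CPM under ccl5, against 38.5, 31.7 and 42.2 CPM without it. The log2 fold change of Yy1 was 0.42 (SE 0.18) and that of Eif4ebp2, a translation repressor, 0.59 (SE 0.26). Myc, named after its values were seen, measured 9.76, 67.0 and 5.10 CPM under ccl5, against 64.4, 64.8 and 53.3 CPM without it. Its ccl5 replicate 2 was the highest library and the other ccl5 libraries the lowest (-1.15, SE 0.93, adjusted p = 0.588 in edgeR's quasi-likelihood test).

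**Figure D5:**
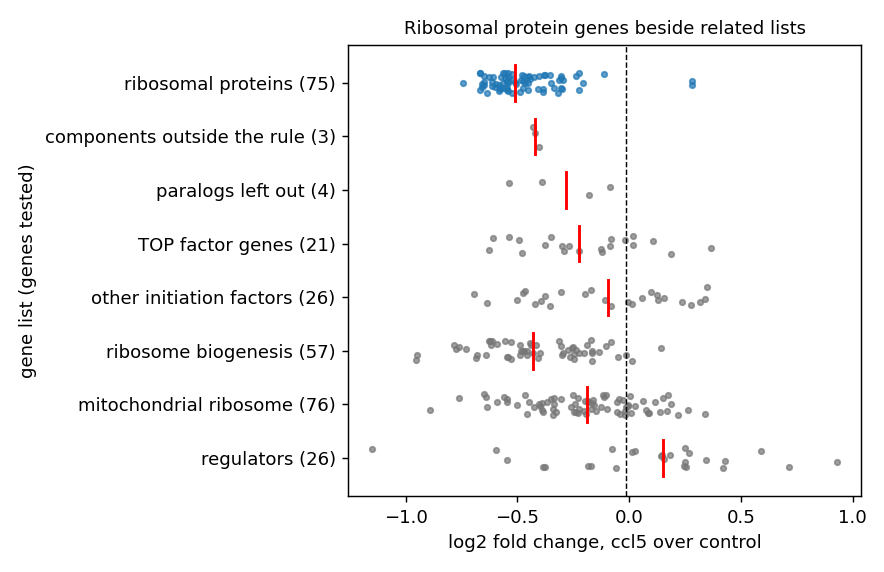
Log2 fold change, ccl5 over control (x axis), of every tested gene in the ribosomal protein set and 7 related lists (y axis, number tested in brackets). Red bars mark list medians, from -0.51 for ribosomal proteins to 0.15 for regulators, a list that mixes genes of opposite action. The dashed line marks the median of all tested genes (-0.01).

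Other measures moved with the same libraries, and their part in the difference was not tested. The summed level of 6 proliferation genes (Mki67, Top2a, Ccnb1, Cdk1, Pcna and Mcm2) was 612, 1959 and 566 CPM under ccl5, against 855, 894 and 1850 CPM without it. Pcna made up most of that sum in ccl5 replicates 1 and 3 and had the other direction, with 423, 324 and 440 against 282, 291 and 307 CPM. The mitotic genes differed more between libraries, with Ccnb1 at 9.90, 146 and 5.55 against 67.3, 73.5 and 138 CPM. The top libraries of the sum were ccl5 replicate 2 and control replicate 3. The ribosomal protein share was the highest of the ccl5 libraries in the first (10.1%) and the lowest of the controls in the second (10.9%). The 7 macrophage markers in the file summed to 378 to 1176 CPM under ccl5, against 226 to 400 CPM without it, with 6 of 7 at a fold change above 0 and none at 0 in all libraries. Emr1 made up most of that sum in every library. Others split within the groups, with C1qb at 130, 69.7 and 110 against 1.27, 1.07 and 67.5 CPM. Marco was at 150, 1.40 and 166 against 6.09, 5.76 and 2.53 CPM. The 5 leukocyte markers summed to 4408 to 19349 CPM and 4756 to 12645 CPM, with 4 of 5 above 0, and most of each sum came from Lyz2, while Ptprc stayed between 522 and 783 CPM. The 6 markers of stroma and endothelium summed to 28.7 to 87.6 and 83.6 to 95.8 CPM, almost all from Pecam1. The B-cell list, with Pax5 and Ebf1 at 2 counts or fewer in every library, stayed at or below 1.08 CPM in sum, the T and NK cell list at or below 0.55 CPM and the erythroid list at or below 0.698 CPM.

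Gene length also moved with the difference. Apart from the ribosomal protein genes, the median log2 fold change was -0.16 over 919 tested genes with under 1 kilobase of exon, -0.11 over 2802 genes of 1 to 2 kilobases, -0.0023 over 4915 of 2 to 4 and 0.11 over 3463 above 4 kilobases. Ribosomal protein genes lay lower than other genes of the same length, with medians of -0.51 in the 58 under 1 kilobase and -0.51 in the 14 of 1 to 2 kilobases. Of the 78 genes 30 hold small nucleolar RNA genes on the same strand (GENCODE M21, same assembly). The median was -0.52 in the 29 of these tested and -0.49 in the 46 tested genes without one.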

How the data were processed

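Polyadenylated RNA of 6 libraries was sequenced from a single end of each fragment, as the protocols in the labels describe. The deposited table gives raw read counts per gene, made by the authors with featureCounts 1.5.1 on primary alignments with the UCSC mm10 annotation, per the file headers, with no strand option and no option for reads on overlapping genes. Per the submitters' processing notes, Trimmomatic, TopHat, Bowtie and DESeq2 were also used, with no version stated. The deposited column of other values is the exon length in bases. Reads shared with processed pseudogenes leave single genes uncertain. The 6 ribosomal protein rows with -ps held 0.0621% to 0.0733% as many counts as the ribosomal protein genes. Pseudogenes under other symbols or outside the annotation are not in that value.

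Counts were scaled by TMM, filtered with filterByExpr (minimum count 10), which kept 12174 genes, and tested with edgeR 4.0.16 (quasi-likelihood F test, two-sided, Benjamini-Hochberg, threshold 0.05) in R 4.3.3, 3 libraries against 3 without a block. The SE is the log2 fold change over the square root of F. The test was checked on simulated data with the spread of these libraries, in which genes drawn at random from all tested genes were changed. It recovered the simulated fold changes in the median, but called no gene at the smallest of them. That fold change is larger than the fitted difference of any tested ribosomal protein gene. The changed genes were not matched to these in level or spread, so the check does not say how often one of these would be missed. A miss does not show that a gene did not differ. Genes and lists were chosen with earlier results of these data known. Named were the 6 genes with the smallest p among those lower, those higher, the 5 highest and lowest per length, the 2 widest spreads per group, the genes not tested, a fixed set, and up to 3 genes of smallest p per related list. 0 sample columns were unused. Alternatives used DESeq2 1.42.0 and limma 3.58.1. Promoters are from RefSeq. A few genes that these rules name are not reported here by name or plotted singly, but stay in all counts and medians.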

Additional observations from a re-analysis of the deposited data

How the results depend on the processing

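No paired analysis was possible because the titles of the ccl5 libraries carry no replicate numbers. Scaling by library size alone moved the median log2 fold change of all genes to -0.17 and that of ribosomal protein genes to -0.66. Relative to all genes that was -0.48, against -0.50 with TMM. In 60 ribosomal protein genes all ccl5 values then lay below all control values, as in 9.13% of all tested genes. In the fits that left out 1 library, the median over ribosomal protein genes lay between -0.58 and -0.41. Of these genes, 75 or 76 tested in each fit, 73 to 74 lay below 0. In 68 to 71 of them all ccl5 values lay below all control values. All ccl5 values lay below all control values in 31.4% of all tested genes without ccl5 replicate 2 and 23.6% without control replicate 3. In the remaining fits of this kind that share was 8.01% to 8.67%. The difference in share of counts was -5.32 to -3.07 percentage points. Calls ranged from 0 to 3299 over all genes and from 0 to 28 among ribosomal protein genes. The upper end of both ranges is the fit without ccl5 replicate 2, which leaves the ccl5 libraries without Y-linked reads. Without control replicate 3, 237 genes and 0 ribosomal protein genes passed. DESeq2's Wald test called 199 genes and 0 ribosomal protein genes. limma-voom with quality weights called 8097 genes and 72 ribosomal protein genes, with a median of -0.70. Restricted to primary transplants, where the 1 control left is assumed to vary like the ccl5 libraries, the median was -0.23 and Rpl41 turned to 0.071. Restricted to libraries with Y-linked reads, where 1 ccl5 library is left and assumed to vary like the controls, the median was -0.31 and the difference in share -1.03 points. Rps27, which rests on few counts, turned to -0.53 there, to -0.22 without ccl5 replicate 3, to -0.14 without control replicate 3 and to -0.011 in limma-voom, was 0.58 without control replicate 1 and reached 2.04 among primary transplants. Of the 31 ribosomal protein genes rerun singly no other changed direction, which was not run for genes named after their values were seen, and the cause of these changes was not tested.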

Other observations

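Rps4y2 was not alone in its layout. With at least 50 counts in both libraries of a pair and 0 in the other 4, 8 genes were found for ccl5 replicate 2 with control replicate 3, and 4 for control replicates 1 and 2. For the other 13 pairs there were 0. Besides Rps4y2, the first set held Slco4c1, Rgs5, Mark1, Bicc1, Ano4, Cftr and 2310030G06Rik. Rgs5 had 143 and 175 counts and Cftr 162 and 184 in ccl5 replicate 2 and control replicate 3. This count and these genes were chosen after the data were seen.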
